A study of Mus musculus with 12 samples.

Results

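The genes described here make bile acids, move them through the hepatocyte and control both processes. They are 33 named genes, chosen as a list of known function and looked up by symbol in the deposited table of 24421 genes, where all 33 were found. By role they are 12 enzymes of synthesis and conjugation, 4 carriers for uptake from blood, 8 transporters of the canalicular membrane that faces the bile, 4 exporters of the basolateral membrane that faces the blood, and 5 genes of control. Their RNA was counted by sequencing in liver tissue without tumour from 12 male mice aged 4 months. There were 3 mice in each of 4 groups. LiK mice received a normal diet, LiK mice received a diet with 0.06% ACR, an acyclic retinoid, from 5 weeks of age until they were killed, and LiKM mice received the same 2 diets. The labels give the strains by these names only. Beyond the labels, LiKM mice are understood to lack Mdm2, which keeps p53 low, in their hepatocytes. Neither the driver of recombination nor the genetic background is stated in the labels. Mdm2 counted over the whole gene lay between 21.6 and 25.8 CPM (counts scaled to library size) in the 6 LiK mice and between 29.0 and 67.2 in the 6 LiKM mice. A count over the whole gene does not isolate a deleted exon, so it does not check the strain label.

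Bile acids are made from cholesterol in hepatocytes. Cyp7a1 opens the classical route, Cyp8b1 sets the share of cholic acid, and Cyp27a1 and Cyp7b1 act in the alternative route. Peroxisomal enzymes shorten the side chain, and Slc27a5 and Baat then join the acid to taurine or glycine. Bile acids that return from the gut in portal blood are taken up by Slc10a1 (also called NTCP) and by the organic anion carriers of the Slco1 family, and Abcb11 (the bile salt export pump) secretes them into the canaliculus. Abcc3, Abcc4 and the heterodimer of Slc51a and Slc51b carry them back into blood, a route that is minor in healthy liver and known to rise in cholestasis. The receptor Nr1h4 (FXR) senses bile acids and induces Nr0b2 (SHP), which represses the synthesis enzymes. A further signal comes from the gut hormone Fgf15, which binds Fgfr4 with its co-receptor Klb on hepatocytes.

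Many of these genes are controlled by nuclear receptors, whose core recognition sequence is the hexamer AGGTCA. Promoter sequences from RefSeq (GRCm38.p6) were at hand for 25 of the 33 members, as the 250 bases before each start. The hexamer, read as AGGTCA or on the other strand as TGACCT, was found in 12 of 32 member windows (37.5%) and in 14.0% of all 32851 windows of the same length. Counted by gene, 11 of the 25 members (44%) had it in at least 1 window. The share by gene was not taken over all genes, and a gene with several windows has more chances of a match. Some windows lie partly or wholly in GENCODE exons of their own gene, among them those of Acox2 (250 bases), Slc51b (182) and Abcc2 (116). Those of Slc51b and Abcc2 held the hexamer. A match is a description of the letters, not a shown binding site. Windows of the uptake carriers that fell in both strain comparisons below, and of the exporter Abcc4 that rose in both, are shown because these genes carry the main result. Each reads 5′ to 3′ on the gene's strand, with the hexamer in capitals where present.
Slco1b2: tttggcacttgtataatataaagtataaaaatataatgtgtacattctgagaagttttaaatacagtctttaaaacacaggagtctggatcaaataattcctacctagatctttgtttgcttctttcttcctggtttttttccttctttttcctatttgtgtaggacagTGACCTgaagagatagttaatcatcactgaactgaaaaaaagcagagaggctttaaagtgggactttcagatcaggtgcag
Slco1a1: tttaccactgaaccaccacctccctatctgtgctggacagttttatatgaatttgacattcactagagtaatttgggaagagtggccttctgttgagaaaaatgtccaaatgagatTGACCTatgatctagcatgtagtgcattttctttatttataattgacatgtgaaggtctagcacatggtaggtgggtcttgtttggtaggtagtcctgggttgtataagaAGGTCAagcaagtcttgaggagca
Slc10a1, outer start: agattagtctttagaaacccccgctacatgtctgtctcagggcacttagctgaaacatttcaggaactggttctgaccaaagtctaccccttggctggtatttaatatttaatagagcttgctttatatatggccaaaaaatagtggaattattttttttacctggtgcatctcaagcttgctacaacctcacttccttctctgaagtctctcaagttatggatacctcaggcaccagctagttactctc
Slc10a1, inner start: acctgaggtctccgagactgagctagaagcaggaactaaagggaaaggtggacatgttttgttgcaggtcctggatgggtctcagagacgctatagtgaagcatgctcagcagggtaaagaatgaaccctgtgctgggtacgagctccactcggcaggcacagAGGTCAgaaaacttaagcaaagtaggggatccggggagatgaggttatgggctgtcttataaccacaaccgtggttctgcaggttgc
Abcc4: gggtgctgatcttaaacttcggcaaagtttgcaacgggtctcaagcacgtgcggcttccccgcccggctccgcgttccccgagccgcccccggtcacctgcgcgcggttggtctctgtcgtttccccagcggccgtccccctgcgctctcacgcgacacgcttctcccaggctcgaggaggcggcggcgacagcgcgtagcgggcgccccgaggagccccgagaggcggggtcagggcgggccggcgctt
The Slco1b2 window (chr6:141629268-141629517, plus strand) held the hexamer once, beginning 81 bases before the start. The Slco1a1 window (chr6:141946963-141947212, minus strand) held it at 134 and at 24 bases before the start. Slc10a1 has 2 annotated starts, and only the window of the inner one (chr12:80968080-80968329, minus strand) held the hexamer, 87 bases before the start, while the outer window (chr12:80968706-80968955) did not. Abcc4 also has 2 annotated starts. Neither the window shown (chr14:118706220-118706469, minus strand) nor that of the inner start (chr14:118676932-118677181) held it.

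Libraries held 10124813 to 18647156 counts, and the 33 members took 0.546 to 0.864% of them. Of the members, 32 had enough counts to be tested, beside 13880 genes in all. Slc51a had 0 counts in all 12 libraries, where 3 counts would be 0.161 to 0.296 CPM. Levels below are CPM scaled by TMM factors, given for mice 1, 2 and 3 of a group in that order, with the mean ± SD (n = 3). Hepatocyte markers were abundant in all libraries, as the tissue label states, with sums of 138823 to 187107 CPM in LiK and 102239 to 117450.0 in LiKM, both without ACR. On ACR they summed to 170724 to 181558 CPM in LiK and 139701 to 180454 in LiKM. The summed level of 13 biliary markers was 56.6 to 71.4 CPM in LiK and 655 to 1105 in LiKM without ACR, and 54.5 to 212 and 365 to 568 with it. The secreted protein Spp1 was the largest single part of that sum in each library. Gut epithelium markers Cdx1, Cdx2 and Sis were at 0 in all libraries. In 3 LiKM libraries (normal diet 3, ACR 2 and ACR 3) genes of the circadian clock stood apart, and their values are given beside the synthesis genes. The labels do not state the hour at which tissue was taken.

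Compared per length of transcript, as length-scaled CPM (FPKM), the uptake carrier Slc10a1 was the most abundant member in LiK mice, at 449.7 ± 55.5 FPKM without ACR and 476 ± 42.1 with it. The steroid reductase Akr1c6 followed with 377 ± 33.2 FPKM on the normal diet and the bile acid-CoA ligase Slc27a5 with 357 ± 21.1, and the ranges of mean ± SD of these neighbours overlapped. On ACR, Akr1c6 had 349 ± 26.5 FPKM in LiK, outside the range of Slc10a1. In LiKM mice the order of the means at the top was different. Akr1c6 had the highest mean, 307 ± 56.1 FPKM on the normal diet, and Slc10a1 came after it at 228 ± 64.3, again within the spread. On ACR the LiKM means were 306 ± 31.7 FPKM for Akr1c6, 259.9 ± 49.3 for Slc10a1 and 252 ± 41.0 for Slc27a5. The exporters to blood were far down the order. Abcc3 had 11.5 ± 2.59 FPKM in LiK on the normal diet, Abcc4 had 0.348 ± 0.0726 and Slc51b 1.04 ± 0.556.

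Without ACR, 13 of the 32 tested members differed between LiKM and LiK livers (edgeR's quasi-likelihood test, Benjamini-Hochberg adjusted), where 21.8% of all tested genes did. Of these, 10 fell in LiKM, beside 8.61% of all genes, and 3 rose, beside 13.2% of all genes. At an unadjusted p under 0.05 there were 17, beside 35.8% of all genes. In all, 28 of the 32 had a log2 fold change below 0 and 4 above it, beside 51.3% of all genes above 0, and the median was -0.51 against 0.02 over all tested genes. With library size alone as the scaling, 18 of the 32 were below 0. The decreases were spread over uptake, canalicular export, synthesis and Klb, while the rises were all in exporters. Groups did not overlap in 20 members, beside 40.1% of all genes. LiKM was lower in 17 of these, beside 19.4%, and higher in 3, beside 20.7%.

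The uptake carriers were clearly lower. Slc10a1 (mm10, chromosome 12, 80953183 to 80968705), the sodium-dependent carrier of conjugated bile acids, had 1119, 878 and 969.7 CPM in LiK and 369, 651 and 487 in LiKM (989 ± 122 and 502 ± 141). Every LiKM mouse lay below every LiK mouse, and the highest, LiKM normal diet 2, was still under the lowest LiK value. The fall was 1.97-fold (log2 -0.98, SE 0.21, edgeR adjusted p = 0.00744). Slco1b2, a carrier of unconjugated bile acids and bilirubin, had 1156, 1276 and 1169.5 CPM in LiK and 602, 867 and 525 in LiKM. It fell 1.81-fold (log2 -0.85, SE 0.21, edgeR adjusted p = 0.016) with no overlap between the groups. Slco1a1, a sodium-independent carrier of organic anions, had 749.7, 723 and 757 CPM in LiK and 327, 535 and 288 in LiKM. The LiK mice were close together and all LiKM mice lower, with a 1.94-fold fall (log2 -0.96, SE 0.21, edgeR adjusted p = 0.00979). The fourth carrier, Slco1a4, did not pass the test (48.6, 62.8 and 42.1 CPM in LiK, 14.5, 24.7 and 23.5 in LiKM, log2 -1.30, 95% interval -2.50 to -0.09, edgeR adjusted p = 0.115). Slco1a1 and Slco1a4 had counts that were not whole in 11 and 10 of the 12 libraries, as arises where reads are shared between similar genes, so the split between them is uncertain. In bulk tissue, fewer hepatocytes and less RNA per hepatocyte cannot be told apart. Of 16 hepatocyte markers 5 fell in this comparison and 0 rose, with a median log2 fold change of -0.61, and their part in the lower carriers was not tested.

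Of the 4 exporters to the blood, 2 went the other way. Abcc4 (chromosome 14, 118482692 to 118706219), a pump for bile acids and cyclic nucleotides, had 1.69, 2.55 and 2.43 CPM in LiK and 7.62, 5.00 and 7.0 in LiKM (2.22 ± 0.464 and 6.54 ± 1.37). Abcc4 was low throughout, but every LiKM mouse lay above every LiK mouse. It rose 2.93-fold (log2 1.55, SE 0.24, edgeR adjusted p = 0.00162). Abcc3 (chromosome 11, 94343295 to 94392997), which exports glucuronides and bile acids, had 81.9, 60.4 and 53.7 CPM in LiK and 138, 109.9 and 149 in LiKM. All LiKM mice were higher, and it rose 2.02-fold (log2 1.02, SE 0.18, edgeR adjusted p = 0.00319). The other tested exporter, Slc51b, stayed between 0.240 and 1.13 CPM over all 12 libraries and did not pass in any comparison. Abcb1a, a drug efflux pump of the canaliculus, was the remaining member that rose, from 5.28, 4.70 and 4.86 CPM to 9.24, 11.4 and 10.3 (2.08-fold, log2 1.06, SE 0.29, edgeR adjusted p = 0.0232). Its counts were not whole in 9 of 12 libraries and its exons overlap a transcript model on the other strand by 553 bases, so its value is uncertain. Beside these rises, all 12 tested biliary markers also rose (median log2 4.35), and bile duct cells are known to express Abcc3. Per 100 CPM of biliary markers, Abcc4 stood at 2.37, 3.90 and 4.29 CPM in LiK and at 1.16, 0.602 and 0.633 in LiKM, so it rose less than they did, and their part in the rise was not tested.

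**Figure D1:**
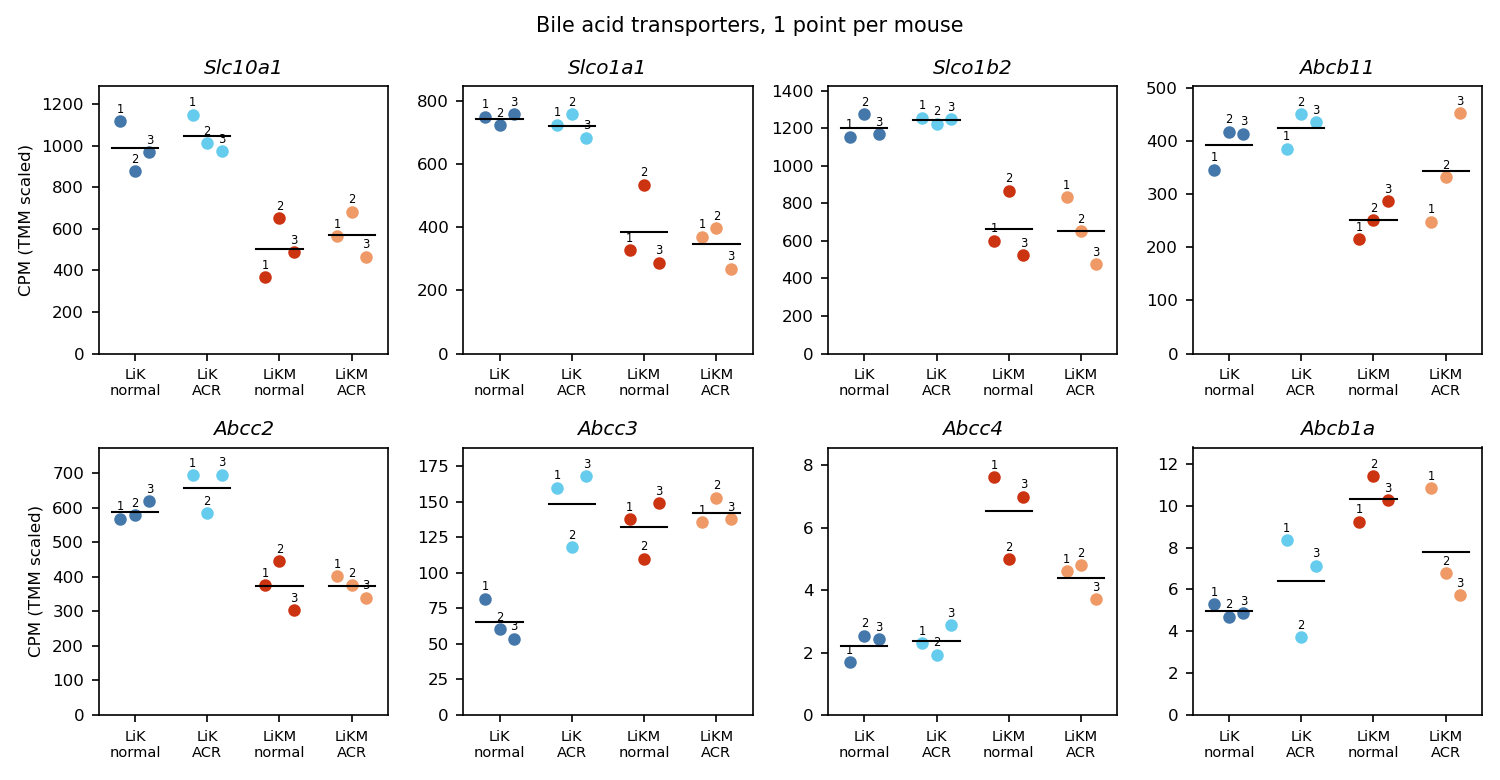
Levels of 8 bile acid transporters in CPM scaled by TMM factors, from 0 upward, with 1 numbered point per mouse and a line at the mean of each of the 4 groups. The 6 LiKM mice lie below the 6 LiK mice for Slc10a1, Slco1a1, Slco1b2 and Abcc2 and above them for Abcc4, and Abcc3 is low in LiK on the normal diet alone.

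At the canalicular membrane 3 of 8 transporters fell, beside 8.61% of all genes. Of the same 8, 1 rose, beside 13.2%, namely Abcb1a described above. Abcc2, the exporter of bilirubin glucuronides and other conjugates, had 568, 578 and 618 CPM in LiK and 375, 444 and 304 in LiKM. The groups were apart, and it fell 1.57-fold (log2 -0.65, SE 0.15, edgeR adjusted p = 0.00979). Abcb11 had 346, 417 and 414 CPM in LiK and 215, 251 and 287 in LiKM. This pump, the rate-limiting step of bile salt secretion, was lower in every LiKM mouse and fell by 0.65 on the log2 scale (SE 0.19, edgeR adjusted p = 0.0342). Abcg2, an efflux pump for sulfated and other conjugates, went from 132, 121 and 131 CPM to 81.8, 104 and 48.3 (log2 -0.71, SE 0.23, edgeR adjusted p = 0.0431), with a wide spread in LiKM but no overlap. Abcb4, the phospholipid flippase, had 246, 273 and 236 against 208, 209.6 and 210.1 CPM and did not pass (log2 -0.27, edgeR adjusted p = 0.107). The paired cholesterol transporters Abcg5 and Abcg8 did not pass either (edgeR adjusted p = 0.516 and 0.115), nor did the aminophospholipid flippase Atp8b1 (0.262). Abcg5 and Abcg8 lie head to head and share 82 bases of exon, and whether counting used the strand is not stated in the sources at hand.

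Of the 12 synthesis enzymes 3 fell, beside 8.61% of all genes, and none rose, beside 13.2%. In either direction 25% of them passed, near the 21.8% of all genes. All 12 had a log2 fold change below 0 (median -0.62), or 8 of 12 with library size alone as the scaling. All 16 hepatocyte markers were also below 0 (median -0.61, 5 past the test), and their part in these values was not tested. Slc27a5, which activates bile acids for conjugation, had 848, 835 and 929.7 CPM in LiK and 463, 649.9 and 376 in LiKM. Every LiKM mouse was lower, and it fell 1.75-fold (log2 -0.81, SE 0.19, edgeR adjusted p = 0.0112). Amacr, the racemase that prepares the side chain for shortening, had 129, 119 and 132 CPM against 75.0, 100.2 and 87.3 (log2 -0.53, SE 0.13, edgeR adjusted p = 0.0135). Its groups did not overlap, with a gap from 100.2 to 119 CPM. Cyp27a1, the mitochondrial sterol 27-hydroxylase, had 328, 568 and 398 CPM in LiK and 256, 316 and 217 in LiKM and fell 1.64-fold (log2 -0.71, SE 0.20, edgeR adjusted p = 0.0252). The groups were separated by a narrow gap, from 316 to 328 CPM. Baat, the conjugating enzyme, did not pass though its groups were apart (189.8, 211 and 192 against 129.9, 175 and 119 CPM, log2 -0.49, edgeR adjusted p = 0.0549).

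The cytochromes that set the rate and the composition of the pool varied too much between mice to be called. Cyp7a1 (chromosome 4, 6265612 to 6275633) had 56.2, 262 and 90.8 CPM in LiK and 42.1, 91.3 and 15.4 in LiKM. The groups overlapped, and the log2 fold change of -1.46 had a 95% interval of -3.35 to 0.44 (edgeR adjusted p = 0.248). Cyp8b1 had 28.1, 311 and 32.9 CPM in LiK and 9.72, 17.5 and 46.0 in LiKM (log2 -2.36, 95% interval -4.75 to 0.03, edgeR adjusted p = 0.145). Its mean in LiK rested on mouse 2, which also had the highest Cyp7a1, Cyp7b1 and Cyp27a1 of its group. Cyp7b1, the oxysterol 7-alpha-hydroxylase, had 154, 325 and 208 CPM against 115, 120.0 and 41.8, with no overlap but no call (log2 -1.31, 95% interval -2.86 to 0.24, edgeR adjusted p = 0.206). The other enzymes, Cyp39a1, Hsd3b7, Akr1d1, Akr1c6 and Acox2, had log2 fold changes between -0.77 and -0.12, of which those of Cyp39a1, Hsd3b7, Akr1c6 and Acox2 turned positive with library size alone (0.01 to 0.28). Hsd3b7 shares 1717 exon bases with a gene model on its own strand, and its counts may include reads of that model.

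**Figure D2:**
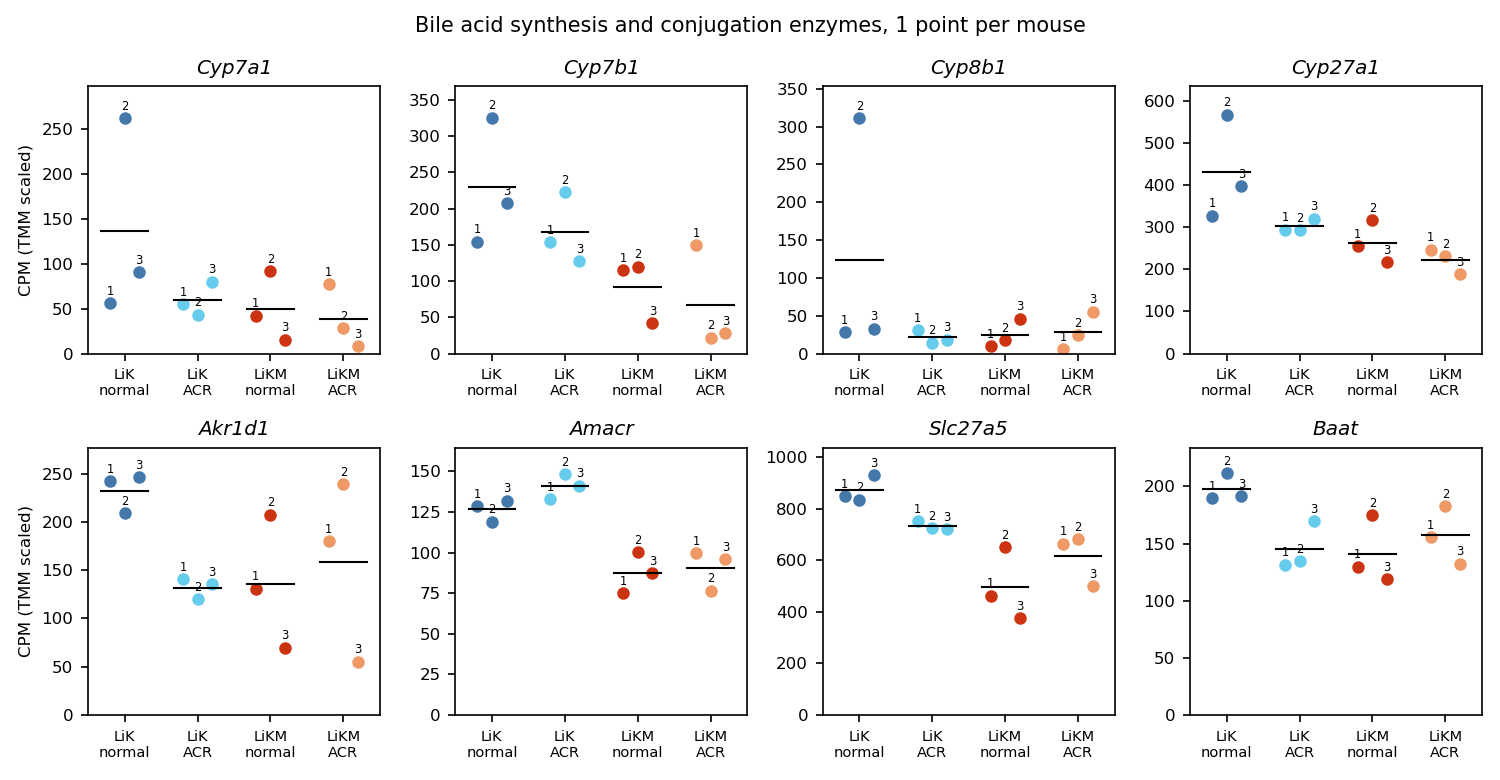
Levels of 8 enzymes of bile acid synthesis and conjugation in CPM scaled by TMM factors, from 0 upward, with 1 numbered point per mouse and a line at each group's mean. Cyp7a1, Cyp7b1 and Cyp8b1 spread widely within groups, with LiK normal diet 2 far above its group for Cyp8b1, while Amacr and Slc27a5 are lower in all LiKM mice than in all LiK mice on the normal diet.

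Among the genes of control, Klb (chromosome 5, 65348314 to 65384007) fell. It had 30.0, 34.8 and 34.3 CPM in LiK and 18.1, 26.1 and 23.2 in LiKM (log2 -0.56, SE 0.13, edgeR adjusted p = 0.0111), with all LiKM mice lower. Its partner Fgfr4 did not follow it. Fgfr4 stayed between 26.9 and 41.8 CPM over all mice, and its log2 fold change of -0.04 had a 95% interval of -0.38 to 0.29 (0.33 with library size alone). Nr0b2 had 15.8, 23.0 and 19.6 CPM in LiK and 17.8, 38.5 and 46.1 in LiKM, overlapping groups with a log2 fold change of 0.81 that did not pass (edgeR adjusted p = 0.22). Nr1h4 (log2 -0.35, edgeR adjusted p = 0.166) and Nr5a2, a receptor that drives Cyp7a1 and Cyp8b1 (log2 -0.28, 0.223), did not pass.

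Leaving out each of the 12 libraries in turn kept 8 of these 13 calls in all fits, namely those of Amacr, Slc27a5, Slc10a1, Slco1a1, Abcc2, Abcc3, Abcc4 and Klb. The other calls ended in at least 1 fit, by edgeR adjusted p. Slco1b2 lost its call without LiKM normal diet 1 (0.054). Cyp27a1 lost it without LiK normal diet 2 (0.0891), LiKM normal diet 1 (0.0667) or 3 (0.0701). Abcb11 lost it without LiK normal diet 1 (0.0519), 2 (0.0822) or 3 (0.094) and without LiKM normal diet 1 (0.0956) or 2 (0.0714). Abcb1a lost it without LiK normal diet 1 (0.0617), 2 (0.0631) or 3 (0.0695) and without LiKM normal diet 2 (0.062) or 3 (0.0529). Abcg2 lost it without LiK normal diet 1 (0.106), 2 (0.0663) or 3 (0.101), any of LiK ACR 1 (0.0522), 2 (0.0581) and 3 (0.0515), and also LiKM normal diet 1 (0.0822), 3 (0.0676) and LiKM ACR 1 (0.052). Members outside the 13 passed in some of these fits. They were Abcg8 (0.0475) and Nr5a2 (0.0308) without LiK normal diet 2, Akr1c6 (0.0498) and Baat (0.0166) without LiKM normal diet 2, Cyp7b1 (0.0465) without LiKM ACR 1, Baat (0.0492) and Slco1a4 (0.0308) without LiKM ACR 2, and Baat (0.0417) and Slco1a4 (0.0471) without LiKM ACR 3. With the identifier prefix in the model 9 members passed, and Klb (0.0579), Cyp27a1 (0.1), Abcb11 (0.188) and Abcb1a (0.123) did not. That prefix, the first 2 letters of the mouse identifier, was MP in LiK normal diet 2 and 3 and LiKM ACR 3. It was KM in all other libraries, so prefix and group are partly mixed. With only LiKM and LiK on the normal diet in the fit, Klb (0.0572), Cyp27a1 (0.0916) and Abcg2 (0.107) did not pass, while Slco1a4 did (0.0138). DESeq2 called 16 members, the 13 with Baat (0.0345), Slco1a4 (0.0369) and Abcb4 (0.0449). The replicate block within LiKM also gave 16, the 13 with Akr1d1 (log2 -0.90, 0.00107), Acox2 (-0.37, 0.0292) and Baat (-0.51, 0.00554). That block takes the deviations shared by same-numbered LiKM mice out of the spread, although the strain comparison is between mice. The scaling mattered as well. With library size alone in place of TMM factors the median of all genes moved from 0.02 to 0.40, 97.6% of all called genes were higher in LiKM against 60.6%, and 6 members passed, 3 higher and 3 lower. The lower ones were Slc27a5 (log2 -0.44), Slc10a1 (-0.59) and Slco1a1 (-0.58), and the members' median stayed 0.53 below that of all genes under both scalings.

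On ACR the strains were compared again, in other mice. Here 8 of 32 members differed by edgeR's quasi-likelihood test, beside 9.79% of all genes, with 7 lower in LiKM (4.24% of all genes) and 1 higher (5.55%). At an unadjusted p under 0.05 there were 13, beside 27.6% of all genes. The median log2 fold change was -0.27 against 0.02 over all genes, and 10 members were above 0, beside 52.4% of all genes. Groups did not overlap in 13 members, beside 33.3%, with 12 lower (16%) and 1 higher (17.2%). The same 3 uptake carriers were lower. Slc10a1 had 1150.1, 1014 and 973 CPM in LiK and 566, 682 and 466 in LiKM (1.83-fold lower, log2 -0.87, SE 0.21, edgeR adjusted p = 0.024). Slco1a1 had 724, 757 and 683 against 369.9, 397 and 269 CPM (2.09-fold lower, edgeR adjusted p = 0.0131). Slco1b2 had 1257, 1225 and 1250.2 against 833, 651 and 476 CPM (1.90-fold lower, edgeR adjusted p = 0.022). For each of the 3 carriers the groups were far apart, with the LiK mice close together. Slco1a4 overlapped between the groups (35.0, 49.1 and 80.6 against 19.7, 54.4 and 9.33 CPM) and did not pass (edgeR adjusted p = 0.264). Hepatocyte markers moved less here, with 0 of 16 past the test and a median of -0.13.

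Abcc2 was again lower, with 695, 585 and 695 CPM in LiK and 402, 377 and 339 in LiKM (1.77-fold, log2 -0.82, SE 0.15, edgeR adjusted p = 0.00893), and the groups did not overlap. Abcg8 passed on this diet. It had 218, 179.7 and 179 CPM in LiK and 107, 105 and 101 in LiKM (1.84-fold lower, log2 -0.88, SE 0.20, edgeR adjusted p = 0.0221). Its partner Abcg5 lay in the same direction (log2 -0.59, edgeR adjusted p = 0.111), and Abcb11 had overlapping groups (386, 451 and 436 against 248, 332 and 453 CPM, log2 -0.30, edgeR adjusted p = 0.345). Amacr was the 1 synthesis enzyme of 12 to pass (8.33%, beside 9.79% of all genes). It had 133, 148 and 141 CPM in LiK and 99.6, 76.5 and 96.1 in LiKM (1.55-fold lower, edgeR adjusted p = 0.0133). Klb had the smallest p of all members. It stood at 48.9, 49.5 and 51.0 CPM in LiK and 23.1, 23.2 and 26.0 in LiKM, tight in both strains and 2.07-fold lower in LiKM (log2 -1.05, SE 0.13, edgeR adjusted p = 0.00253). Nr5a2 did not pass (55.6, 56.7 and 65.2 against 39.4, 46.7 and 40.9 CPM, edgeR adjusted p = 0.0681). The other enzymes did not pass either. Cyp7a1 had a log2 fold change of -0.65 (95% interval -2.53 to 1.23), Cyp7b1 -1.33 (-2.89 to 0.22) and Cyp8b1 0.41 (-1.91 to 2.73), with overlapping groups for all 3. Cyp27a1 (log2 -0.45) and Slc27a5 (-0.25) were lower without overlap, while Cyp39a1, Hsd3b7, Akr1d1, Akr1c6, Acox2 and Baat lay between -0.28 and 0.43. Of the other canalicular genes, Abcb4 (-0.25), Abcg2 (0.30), Abcb1a (0.28) and Atp8b1 (0.21) did not pass, nor did Nr1h4 (-0.08), Nr0b2 (0.36) and Fgfr4 (-0.12).

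Of the exporters to blood, Abcc4 was higher in LiKM on ACR too, at 4.60, 4.81 and 3.72 CPM against 2.31, 1.93 and 2.88 (1.84-fold, log2 0.88, SE 0.24, edgeR adjusted p = 0.0426). Abcc3 was not. Its levels were 159.9, 118 and 168 CPM in LiK and 135, 153 and 138 in LiKM, fully overlapping, and the interval of the log2 difference was -0.45 to 0.32. Slc51b had a log2 fold change of -0.42 and did not pass. Biliary markers rose on this diet as well, in 11 of 12 tested, with a median of 2.25, and their part in the Abcc4 result was not tested. Per 100 CPM of these markers, Abcc4 stood at 1.09, 2.82 and 5.29 CPM in LiK and 1.26, 1.18 and 0.655 in LiKM, with overlap.

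Only Abcc2 and Klb kept their calls on ACR in all 12 fits that left out a library. Without LiK ACR 2 just these 2 passed, and 4 passed without LiK ACR 1. By edgeR adjusted p, Slco1a1 (0.0559) and Amacr (0.0623) lost their calls without LiK ACR 2. Slc10a1 lost it without LiK ACR 1 (0.0809) or 2 (0.075) and LiKM ACR 1 (0.0542) or 3 (0.0628). Slco1b2 lost it without LiK ACR 1 (0.0621), 2 (0.0716) or 3 (0.0534) and LiKM ACR 2 (0.0589). Abcg8 lost it without LiK ACR 1 (0.076) or 2 (0.0627) and LiKM ACR 2 (0.0579) or 3 (0.0514). Abcc4 lost it without LiK normal diet 3 (0.0607), LiK ACR 1 (0.115), 2 (0.162) or 3 (0.0561), and LiKM ACR 1 (0.0916) or 2 (0.106). Cyp7b1 passed without LiKM ACR 1 (log2 -2.75, 0.0156), Slco1a4 without LiKM ACR 2 (-1.92, 0.0368) and Nr5a2 without LiK normal diet 2 (-0.49, 0.0238). The replicate block within LiKM gave 9 members, the 8 with Acox2 (log2 0.38, 0.0398). With LiKM normal diet 3, ACR 2 and ACR 3 left out for their clock genes, a choice made after seeing the data, a single LiKM mouse on ACR was left, assumed to vary like the other groups. Then 3 members passed, 2 of them among the 8, and the values of Slc10a1 (log2 -0.89, edgeR adjusted p = 0.121), Slco1a1 (-0.97, 0.0563) and Slco1b2 (-0.59, 0.129) stayed below 0.

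**Figure D3:**
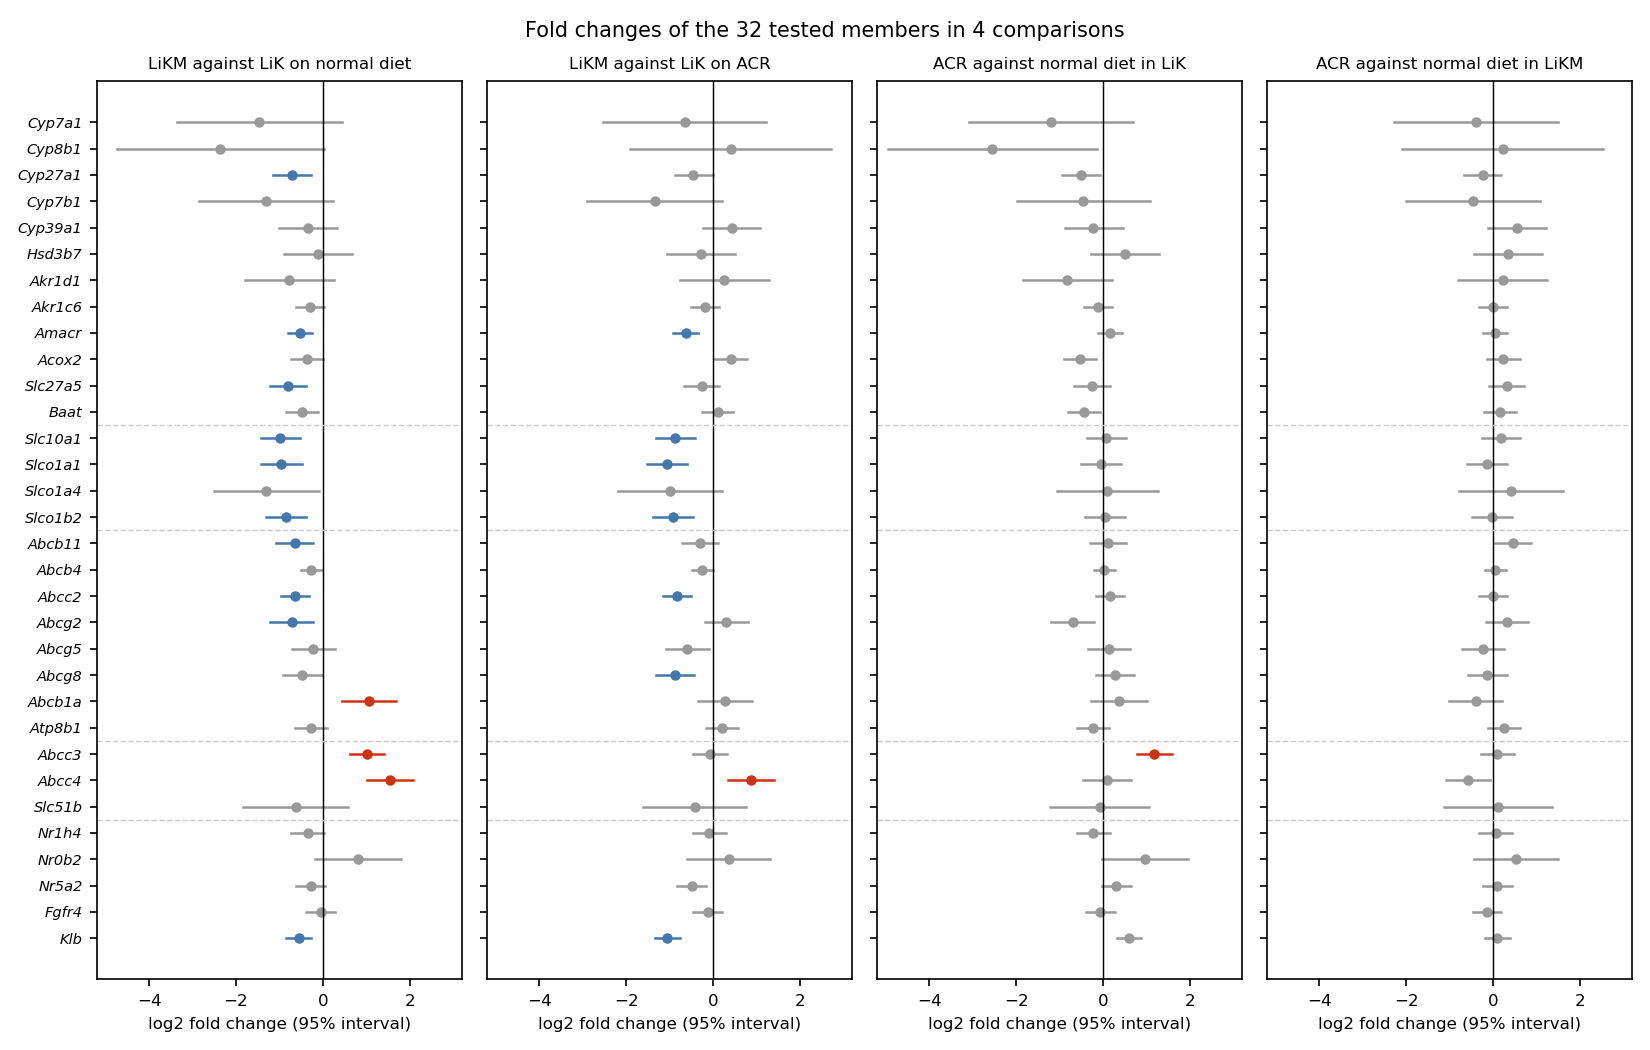
Log2 fold changes with 95% intervals for the 32 tested members, grouped by role, in 4 comparisons, with members past the test coloured red (higher) or blue (lower) and the others grey. The uptake carriers Slc10a1, Slco1a1 and Slco1b2 lie between -1.06 and -0.85 in both strain comparisons and between -0.15 and 0.19 in both diet comparisons, and Abcc3 rose with ACR in LiK.

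The diet was compared within each strain to ask what ACR changed. In LiK mice 1 of 32 members passed, beside 0.195% of all genes. It was higher (0.13% of all genes) and 0 were lower (0.0648%). This was Abcc3, which rose 2.27-fold from 81.9, 60.4 and 53.7 to 159.9, 118 and 168 CPM (log2 1.18, SE 0.18, edgeR adjusted p = 0.0223). All mice on ACR lay above all on the normal diet, and the LiK mice on ACR overlapped with LiKM mice on either diet. In this comparison 2 of the 12 tested biliary markers had an unadjusted p under 0.05 and 0 passed. The other exporter, Abcc4, stayed at 2.31, 1.93 and 2.88 CPM (log2 0.09, 95% interval -0.47 to 0.65), and no uptake carrier passed (log2 fold changes from -0.04 to 0.10). By edgeR adjusted p, Abcc3 no longer passed when LiK normal diet 2 (0.113) or 3 (0.141) or LiK ACR 1 (0.108) or 3 (0.0945) was left out, though its groups did not overlap.

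In LiK 7 members had an unadjusted p under 0.05, beside 14.1% of all genes, and 6 of them did not pass. Klb had the smallest p among them, at 48.9, 49.5 and 51.0 CPM on ACR and 30.0, 34.8 and 34.3 on the normal diet (log2 0.59, SE 0.13, edgeR adjusted p = 0.0881), and its groups were well apart. The peroxisomal oxidase Acox2 had 87.8, 112 and 101 CPM on ACR and 131, 158 and 146 on the normal diet (log2 -0.53, edgeR adjusted p = 0.206). Abcg2 had 87.1, 83.1 and 66.1 against 132, 121 and 131 CPM (log2 -0.70, edgeR adjusted p = 0.209). Baat (log2 -0.44, edgeR adjusted p = 0.266), Cyp27a1 (-0.51, 0.283) and Cyp8b1 (-2.55, 0.329) were the remaining members. Akr1d1, the reductase of the steroid ring, had 140.4, 119.7 and 136 CPM on ACR and 242, 209 and 246 on the normal diet, with no overlap but a log2 interval of -1.85 to 0.21. Groups did not overlap in 13 of the 32 members, beside 28.1% of all genes, with 7 higher on ACR (13.4%) and 6 lower (14.6%), and 16 members had a log2 fold change above 0, beside 51.3%. Among those not named so far, the synthesis enzymes Cyp7a1 (log2 -1.20, 95% interval -3.08 to 0.68), Cyp7b1 (-0.45), Cyp39a1 (-0.22), Hsd3b7 (0.50), Akr1c6 (-0.11), Amacr (0.15) and Slc27a5 (-0.25) did not pass. Nor did the canalicular genes Abcb11, Abcb4, Abcc2, Abcg5, Abcg8, Abcb1a and Atp8b1 (-0.23 to 0.37), Slc51b (-0.08), or Nr1h4 (-0.22), Nr0b2 (0.97), Nr5a2 (0.31) and Fgfr4 (-0.06). The count past the test depended on the fit. It was 6 with the replicate block within LiKM (Abcc3 and Klb higher, Akr1d1, Acox2, Baat and Abcg2 lower), 6 with only the 2 groups compared, 2 by DESeq2 (Abcc3 and Klb) and 0 with the prefix of the mouse identifier added to the model, where Abcc3 had log2 1.01 (edgeR adjusted p = 0.0664). Of 19 clock genes 0 passed between the diets in LiK, and 9 had an unadjusted p under 0.05. The clock output gene Dbp had 35.9, 25.6 and 31.8 CPM without ACR but 139, 137 and 136 with it, and its part in these values was not tested.

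In LiKM mice 0 of 32 members passed by edgeR, as did 0 of all genes, and 2 members had an unadjusted p under 0.05, beside 7.24% of all genes. DESeq2 called 0 members and 79 genes. With the replicate number as a block within LiKM, where same-numbered mice deviated together, 9 genes and 0 members passed. The 2 members were Abcb11 (215, 251 and 287 CPM without ACR, 248, 332 and 453 with it, log2 0.46, edgeR adjusted p = 0.647) and Abcc4 (7.62, 5.00 and 7.0 against 4.60, 4.81 and 3.72 CPM, log2 -0.58, edgeR adjusted p = 0.588). The Abcb11 groups overlapped, and Abcc4 was lower in all 3 mice on ACR, the 1 member of 32 without overlap, beside 10.6% of all genes (6.7% lower and 3.94% higher). A log2 fold change above 0 was seen in 20 members, beside 47.6% of all genes. Biliary markers had log2 fold changes below 0 in 12 of 12 tested, with a median of -1.29 and 0 past the test. Abcc3 had a log2 fold change of 0.10 in LiKM, with a 95% interval of -0.28 to 0.49. Slc10a1 had 0.19 (-0.26 to 0.63) and Klb 0.10 (-0.18 to 0.38). With library size alone the values of Abcc3 (-0.06) and Klb (-0.04) were below 0. The other carriers Slco1a1, Slco1a4 and Slco1b2 lay between -0.15 and 0.41, and the 12 synthesis enzymes between -0.47 (Cyp7b1) and 0.56 (Cyp39a1). The remaining canalicular genes Abcb4, Abcc2, Abcg2, Abcg5, Abcg8, Abcb1a and Atp8b1 lay between -0.40 and 0.32, Slc51b was at 0.12, and Nr1h4, Nr0b2, Nr5a2 and Fgfr4 lay between -0.14 and 0.52.

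The difference of the diet effects between the strains was tested directly. None of the 32 members passed by edgeR, beside 0.0072% of all genes, and 5 had an unadjusted p under 0.05, beside 11.5%. The difference was above 0 in 17 members, beside 47.5% of all genes. Abcc3 had the smallest p, with a diet effect lower by 1.08 on the log2 scale in LiKM than in LiK (SE 0.25, unadjusted p = 0.00107, edgeR adjusted p = 0.159). DESeq2 called it (log2 -1.08, adjusted p = 0.0142). The others were Abcg2 (log2 1.02), Acox2 (0.77), Baat (0.60) and Klb (-0.49), with edgeR adjusted p from 0.29 to 0.372. The remaining members had edgeR adjusted p of 0.449 or more. The fit with the replicate block within LiKM called Akr1d1, Acox2 and Abcg2, all with a higher diet effect in LiKM.

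The cytochromes of synthesis are known to follow the time of day, so their levels are set beside clock genes. In the 3 LiKM libraries that stood apart (normal diet 3, ACR 2 and ACR 3), the clock activator Npas2 had 1.51, 10.4 and 18.2 CPM, against 0.0566 to 0.660 in the other 9 libraries. The clock output gene Usp2 had 3.34, 15.2 and 0.854 CPM there, against 26.9 to 51.3. In the same 3 libraries Cyp7a1 had 15.4, 27.9 and 8.42 CPM, against 42.1 to 262 in the other 9, so all 3 lay below. Cyp7b1 had 41.8, 21.7 and 28.3 CPM, against 115 to 325. Cyp27a1 had 217, 232 and 188 CPM, against 247 to 568. These were the 3 members whose 3 libraries all lay below the other 9, beside 2.97% of all tested genes, and 0 members lay above, beside 1.95%. Cyp8b1, on the other hand, was highest among LiKM mice in normal diet 3 (46.0 CPM) and ACR 3 (55.5 CPM). The ratio of Cyp8b1 to Cyp7a1 was 2.98 and 6.59 in those mice, and between 0.0692 and 1.19 in the other 10. The 3 libraries are all LiKM, and the hour of collection is unknown here, so time and strain cannot be told apart for these enzymes. Of 19 clock genes, 0 changed between the strains on the normal diet, beside 21.8% of all genes. On ACR 3 rose, beside 5.55%, and 4 fell, beside 4.24%. Npas2, Usp2 and Dbp are shown as examples chosen after their values were seen.

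**Figure D4:**
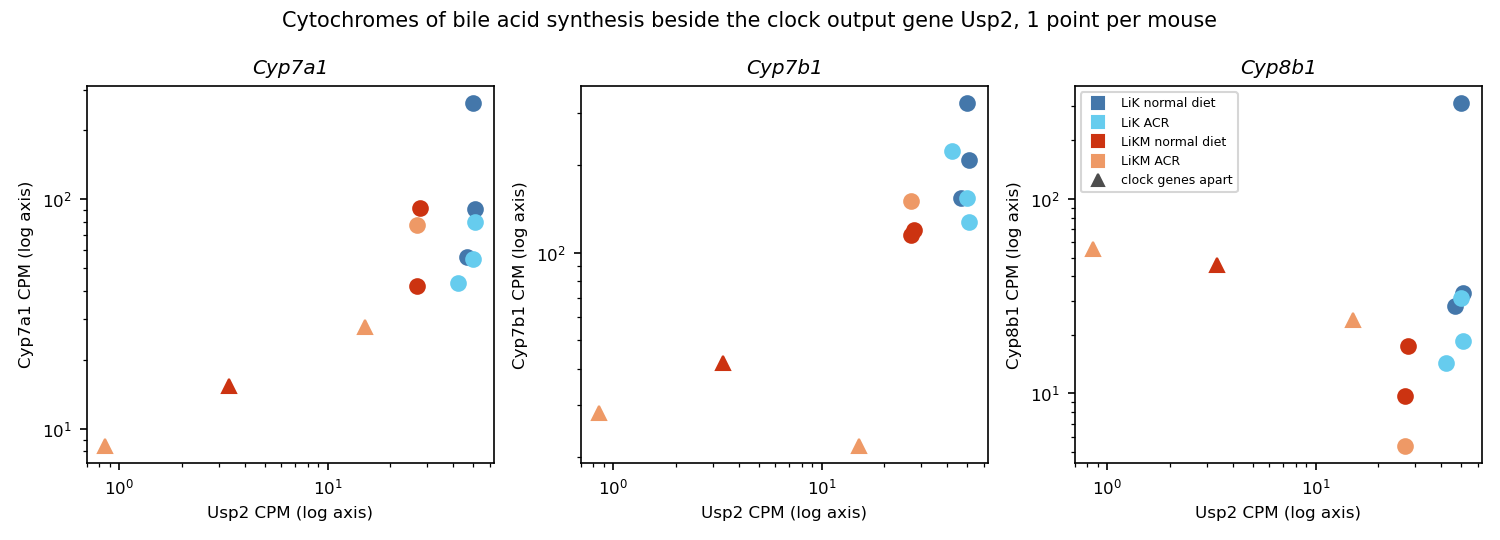
Levels of Cyp7a1, Cyp7b1 and Cyp8b1 in CPM against the clock output gene Usp2 in CPM, both on log axes, with 1 point per mouse coloured by group and triangles for LiKM normal diet 3, ACR 2 and ACR 3. The triangles lie lowest for Cyp7a1 (8.42 to 27.9 CPM) and Cyp7b1 (21.7 to 41.8 CPM) while for Cyp8b1 (23.9 to 55.5 CPM) they are the highest of the LiKM mice.

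Ratios within a library do not depend on how libraries are scaled to each other. The ratio of Abcc3, which moves bile acids out to the blood, to Slc10a1, which takes them in, was 0.0732, 0.0689 and 0.0554 in LiK on the normal diet. It was 0.139, 0.116 and 0.173 in LiK on ACR, 0.374, 0.169 and 0.306 in LiKM on the normal diet, and 0.239, 0.224 and 0.296 in LiKM on ACR. The LiK mice on the normal diet were lowest, and LiK on ACR and LiKM on the normal diet overlapped slightly, at 0.173 and 0.169. These values rest on the genes already described and are given without a test, since 3 mice against 3 cannot reach an exact permutation p under 0.1. The albumin gene Alb was the largest single part of the hepatocyte marker sum in each library. It made up 130942 of 187107 CPM in LiK normal diet 1 and 130323 of 180454 in LiKM ACR 2. Ratios to these markers therefore rest largely on Alb, and whether groups overlap can change without it. The summed uptake carriers per 100 CPM of hepatocyte markers were 1.64, 2.12 and 1.61 in LiK and 1.17, 1.77 and 1.30 in LiKM on the normal diet, overlapping through LiKM normal diet 2. On ACR they were 1.85, 1.78 and 1.65 in LiK and 1.23, 0.989 and 0.874 in LiKM, with no overlap. The canalicular exporters per 100 CPM of the same markers overlapped on the normal diet but not on ACR, at 1.10, 1.02 and 1.01 in LiK and 0.841, 0.727 and 0.968 in LiKM. The synthesis enzymes overlapped on both diets, at 1.63, 2.99 and 1.89 in LiK and 1.83, 2.38 and 1.97 in LiKM on the normal diet, and at 1.62, 1.74 and 1.62 and 1.79, 1.39 and 1.64 on ACR.

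**Figure D5:**
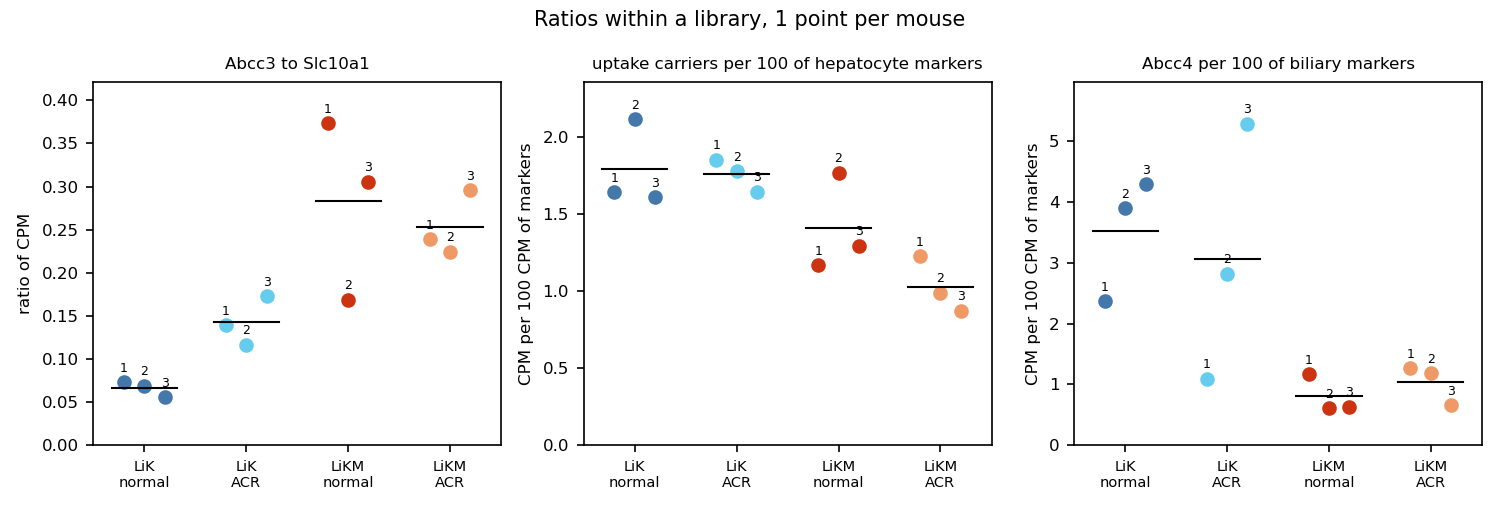
Ratios within a library for Abcc3 to Slc10a1, the summed uptake carriers per 100 CPM of hepatocyte markers and Abcc4 per 100 CPM of biliary markers, from 0 upward, with 1 numbered point per mouse and a line at each group's mean. Abcc3 to Slc10a1 is lowest in LiK on the normal diet (0.0554 to 0.0732). Abcc4 per biliary marker has lower means in LiKM (0.602 to 1.26), overlapping LiK on ACR (1.09 to 5.29). Uptake per hepatocyte marker has its lowest mean in LiKM on ACR (0.874 to 1.23), overlapping LiKM on the normal diet (1.17 to 1.77).

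Other genes of bile acid handling were taken from another list of 33, of which 28 were tested. On the normal diet 8 fell in LiKM, beside 8.61% of all tested genes, and 1 rose, beside 13.2%. The list's median log2 fold change was -0.46, against 0.02 over all tested genes. Abcd3, the peroxisomal importer of bile acid precursors, had 935, 889 and 835 CPM in LiK and 432, 568 and 326 in LiKM (log2 -1.0, edgeR adjusted p = 0.00426). Slc27a2, a ligase for the same precursors, had 1568, 1371 and 1481 against 721, 1001 and 894 CPM (log2 -0.76, edgeR adjusted p = 0.00377). Both had no overlap between the groups. Abcc6 fell as well (log2 -0.52, edgeR adjusted p = 0.00884), and the efflux pump Abcc1, a basolateral relative of Abcc3, rose from 1.48, 2.55 and 2.26 to 6.48, 6.06 and 5.49 CPM (2.85-fold, edgeR adjusted p = 0.00195). On ACR 3 fell, beside 4.24% of all genes, and 2 rose, beside 5.55%. These were Rxra, the shared partner of FXR and retinoid receptors (log2 -0.70, edgeR adjusted p = 0.00744), Slc27a2 (-0.58, 0.025) and Abcc6 (-0.45, 0.0307), and Abcc1 (1.12, 0.0182) and the epoxide hydrolase Ephx1 (1.21, 0.0291), with Abcc6 the fifth by p and named to complete the count. In either diet comparison 0 of 28 passed, beside 0.195% of all genes in LiK and 0 in LiKM. An unadjusted p under 0.05 was seen for 4 in LiK, beside 14.1%, and for 1 in LiKM, beside 7.24%. Fgf15, the gut hormone that signals through Klb, had 0 counts in all libraries. Of 10 tested targets of FXR, a list that also holds members described above, 1 (Abcb11) fell on the normal diet, beside 8.61% of all genes. On ACR 0 of the 10 passed, beside 9.79%.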

How the data were processed

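RNA was sequenced from poly(A)-selected stranded libraries, per the labels' protocols. The authors deposited 1 table of expected counts per gene symbol and library. Per the submitters' processing notes it was made with featureCounts 2.0.0 on mm10. Not given in the sources used here are the aligner, annotation, strand setting and options for shared reads. Of values above 0, 18.9% were not whole. All 12 columns matched a title, with 0 unmatched.

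Counts were rounded, filtered by group with filterByExpr of edgeR 4.0.16 (R 4.3.3), which kept 13880 genes, and scaled by TMM factors (0.83 to 1.243). The quasi-likelihood test with 1 coefficient per group over all libraries gave p-values, adjusted by Benjamini-Hochberg over all tested genes of a comparison, and "rose" and "fell" mean an adjusted p under 0.05. SEs are the log2 fold change divided by the root of F, and intervals are 95%. The script was tested on simulated data. FPKM use exon lengths of GENCODE M21. The rule was to name all members in each comparison, by values or ranges, and from other lists up to 4 genes of smallest p past the threshold. Genes named beyond it were chosen after their values were seen. Members and lists were chosen with earlier results of these data known.

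Part of the strains' genotype is not reported here. Groups and replicate numbers come from titles that name separate mice. All pairs of libraries of 1 group differed by more than counting noise (chi-square divided by its degrees of freedom 15.7 to 65.2). Deviations of same-numbered LiKM mice on the 2 diets correlated at 0.37, 0.22 and 0.48, and for other comparisons between -0.10 and 0.08. The reported tests used no pairing, and the numbers entered only the alternative fits with a replicate block. Alternatives were library size alone, RLE factors, other filters, DESeq2 1.42.0, replicate blocks, the 2-letter prefix of the mouse identifier, the 2 groups alone and each library left out.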

Additional observations from a re-analysis of the deposited data

How the results depend on the processing

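Of 3640 member log2 fold changes refitted under the alternatives, 177 changed sign, none of them a value that passed the test in either fit. With library size alone, 10 members changed sign in LiKM against LiK on the normal diet, 2 on ACR, 4 for ACR in LiK, 7 for ACR in LiKM and 5 for the difference, and the members' median went from 0.10 to -0.05 for ACR in LiKM and from 0.06 to -0.21 for the difference. For members called in LiKM against LiK on the normal diet (13), library size alone gave 6, the identifier prefix 9, DESeq2 16, the replicate block within LiKM 16, and leaving out 1 library 9 to 15. On ACR (8), the replicate block within LiKM gave 9, omitting the 3 LiKM libraries with displaced clock genes gave 3, omitting LiK normal diet 2 as well gave 4, and leaving out 1 library gave 2 to 9. These omissions were chosen after seeing the data and leave 1 LiKM mouse on ACR, assumed to vary like the other groups. For ACR in LiK (1 member), the replicate block within LiKM gave 6, the 2 groups alone 6, DESeq2 2, the identifier prefix 0, the omissions 5 and 3, and leaving out 1 library 0 to 2. For ACR in LiKM leaving out 1 library gave 0. For the difference of diet effects (0), the replicate block within LiKM gave 3, DESeq2 1 and leaving out 1 library 0. The replicate block over all groups gave 14, 7, 1, 0 and 0 members in the 5 comparisons, where the numbers pair no samples between strains or within LiK.

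Over all genes, LiKM against LiK on the normal diet called 3031, with 4831 by library size alone and 1658 to 3384 without 1 library. On ACR it called 1359, with 2150 by DESeq2, 2473 under the replicate block within LiKM, 555 and 775 under the omissions, and 312 to 1695 without 1 library. ACR in LiK called 27, with 701 under the replicate block within LiKM, 16 with the prefix, 812 with the 2 groups alone, 397 by DESeq2, 624 and 529 under the omissions, and 0 to 108 without 1 library. ACR in LiKM called 0, with 9 under that replicate block, 79 by DESeq2, 1 and 1 under the omissions, and 0 to 5 without 1 library. The difference of diet effects called 1, with 16 by library size alone, 2 with no filter, 2 under the replicate block, 260 under the block within LiKM, 0 with the prefix, 160 by DESeq2, 15 and 10 under the omissions, and 0 to 20 without 1 library. The cause of these shifts was not tested. With 3 mice a group, wide intervals limit what can be said of Cyp7a1, Cyp7b1 and Cyp8b1, and members near 1 CPM, such as Slc51b, are limited by depth.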
